A study of Danio rerio with 6 samples.

Results

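The genes described here are *mdka* and 4 genes used as marks of the activated epicardium in the injured zebrafish heart, *wt1a*, *wt1b*, *aldh1a2* and *snai1b*. They were taken by their Ensembl identifiers, and these 5 genes are among 32520 genes in the deposited count table. The identifiers are ENSDARG00000036036 (*mdka*), ENSDARG00000031420 (*wt1a*), ENSDARG00000007990 (*wt1b*), ENSDARG00000053493 (*aldh1a2*) and ENSDARG00000046019 (*snai1b*). RNA-seq was performed on ventricular tissue of adult AB zebrafish at 7 days post-cryoinjury (dpci). The 6 libraries were 3 pools of *mdka cn105* fish (genotype label MDKA KO, replicates 2, 3 and 4) and 3 pools of *mdka*+/+ fish (genotype label WT, replicates 1, 2 and 4), and each pool held 3 apexes. Both genotypes were cryoinjured and were raised from crosses of the same fish, and there was no uninjured group. The *cn105* allele is a germline CRISPR/Cas9 mutation in the third exon of *mdka*. It is present in every cell and not only in the epicardium, and its transcript can still be counted.

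The epicardium is the cell sheet that covers the heart. After injury it re-expresses embryonic genes, and some of its cells leave the sheet by epithelial-mesenchymal transition (EMT) and give rise to fibroblasts and mural cells. *mdka* encodes Midkine-a, a secreted heparin-binding growth factor. *wt1a* and *wt1b* are the zebrafish copies of the Wilms tumour gene, which encodes a zinc finger transcription factor of epicardial and kidney progenitors. *aldh1a2* encodes the enzyme that makes retinoic acid from retinal, and the injured heart produces it in epicardium and endocardium. *snai1b* encodes a Snail family zinc finger repressor, a driver of EMT in embryonic tissues.

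Values are RSEM expected counts scaled by library with TMM and given as CPM, the count of a gene relative to a fixed total number of counts per library, and log2 fold changes are *mdka cn105* over *mdka*+/+. A gene is written here as called when edgeR's quasi-likelihood test gave an unadjusted *p* under 0.05, the threshold without correction used in the study's methods. Benjamini-Hochberg adjusted *p*-values over all 17879 genes tested are given beside it. Libraries held between 18940128 and 25195457 expected counts. Of all tested genes, 12.1% were called, 5.64% as higher and 6.42% as lower in *mdka cn105* (1009 and 1148 genes). With scaling by library size alone the split was 2081 higher and 501 lower, and the median log2 fold change over tested genes was 0.13 instead of -0.01. Heart muscle genes were abundant in every pool, and *myl7*, for a cardiac myosin light chain, had between 9121 and 15298 CPM. The atrial myosin gene *myh6* had between 65.5 and 216 CPM.

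Of the 5 genes, *mdka* was lower and *snai1b* higher in *mdka cn105* hearts, and *wt1a*, *wt1b* and *aldh1a2* were not called. That is 2 called genes of 5, beside 12.1% of all tested genes. These 2 include the mutated gene *mdka* itself, and the 5 were chosen with earlier results of these data known. The groups did not overlap for *mdka* and *snai1b*, as for 17.7% of all tested genes (8.75% with *mdka cn105* above and 8.97% with it below). After adjustment 0 of the 5 passed 0.05 in the main edgeR test, where 0.00559% of tested genes did. Some other settings gave lower values and some gave higher ones. The adjusted *p*-values of *mdka* and *snai1b* were 3.82e-13 and 4.74e-09 with DESeq2 and 0.0347 for both with edgeR without a filter on low counts. With edgeR, *mdka* also passed under the replicate block (adjusted *p* = 0.00745) and *snai1b* with library size only (adjusted *p* = 0.0402). Under the block *snai1b* did not pass (edgeR adjusted *p* = 0.192). When a library was left out, the edgeR adjusted *p* ranged from 0.0695 to 0.346 for *mdka*. For *snai1b* it ranged there from 0.067 to 0.318. Replicates 1 and 3 each occur in a single genotype, so the genotype difference under the block rests on replicates 2 and 4.

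**Figure D1:**
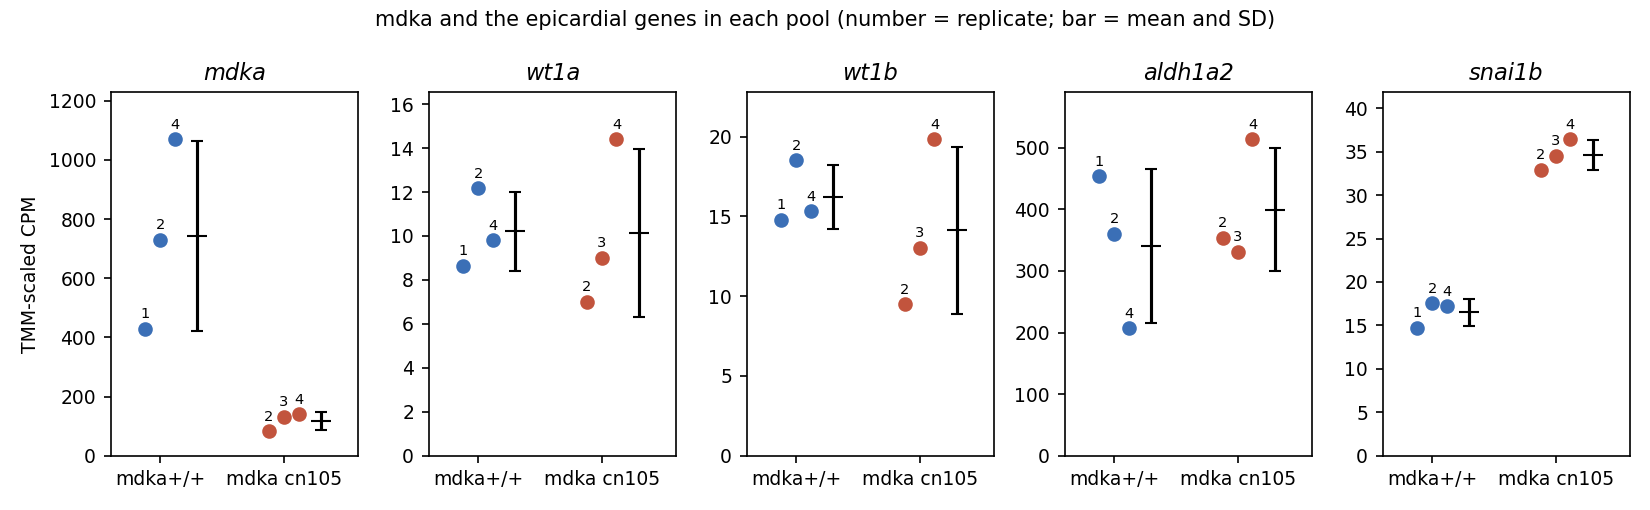
TMM-scaled CPM (vertical axis, from 0) of each of the 5 genes in the 3 *mdka*+/+ pools (blue) and the 3 *mdka cn105* pools (red), with replicate numbers above the points and the mean and SD as a black bar. The genotypes are apart for *mdka* (highest *mdka cn105* pool 139, lowest *mdka*+/+ pool 429) and *snai1b* (lowest *mdka cn105* pool 32.9, highest *mdka*+/+ pool 17.6) and overlap for the other 3 genes.

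*mdka* spans bases 39166460 to 39178198 of chromosome 7 (GRCz11, forward strand) in the study's gene table, and 5 transcripts are assigned to it in the count table. The counts used here are for the gene as a whole. The study lists the following primer pair for measuring *mdka* by qPCR, and its place in the 5 transcripts was not examined, 5′ to 3′:
mdka forward: accgtctctgtgaccaaacc
mdka reverse: ctttccccttgcctttcttt
In *mdka*+/+ pools its level was 429 CPM (replicate 1), 731 CPM (replicate 2) and 1070 CPM (replicate 4). In *mdka cn105* pools it was 81.8 CPM (replicate 2), 132 CPM (replicate 3) and 139 CPM (replicate 4). Every *mdka cn105* pool lay below every *mdka*+/+ pool. The log2 fold change was -2.66 (SE 0.36, unadjusted *p* = 8.81e-05, adjusted *p* = 0.0944 from edgeR), and the 95% interval of the log2 fold change ran from -3.48 to -1.83. Across the 7 alternative settings that kept all libraries the adjusted *p* ranged from 3.82e-13 to 0.0914. Between 2097 and 2841 counts of *mdka* were still assigned in each *mdka cn105* library, so the transcript was reduced and not absent.

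The wild-type level of *mdka* was itself variable. Its coefficient of variation (SD over mean) among *mdka*+/+ pools was 43.1%, and the highest pool had 2.49 times the level of the lowest. Among the 457 genes with a mean CPM within 2-fold of *mdka*, 96.7% had a smaller coefficient of variation in these pools, and their median was 12.9%. In *mdka cn105* pools the coefficient of variation of *mdka* was 26.6%, against a median of 8.14% for the same genes.

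*snai1b* (chromosome 23 of GRCz11, reverse strand, 2502181 to 2513300) was the most uniform of the 5 genes and the one that was higher without *mdka*. Its level was 14.7, 17.6 and 17.2 CPM in *mdka*+/+ replicates 1, 2 and 4. It was 32.9, 34.5 and 36.4 CPM in *mdka cn105* replicates 2, 3 and 4. The lowest *mdka cn105* pool was above the highest *mdka*+/+ pool, and the means were 16.5 ± 1.54 and 34.6 ± 1.75 CPM (SD, n = 3 each), 2.10-fold apart. The log2 fold change was 1.07 (SE 0.12, 95% interval 0.79 to 1.35, edgeR unadjusted *p* = 2.53e-05, adjusted *p* = 0.0735). The adjusted *p* ranged from 4.74e-09 to 0.192 over the 7 alternatives that kept all libraries. By unadjusted *p* it was rank 5 of the genes tested, and *mdka* was rank 15. The log2 fold change stayed between 0.99 and 1.12 when any single library was left out. Its coefficient of variation was 5.07% in *mdka cn105* and 9.33% in *mdka*+/+ pools, and 25.0% and 30.3% of the 5085 genes of like abundance had smaller values.

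Genes of other cell types also differed between the genotypes, and their counts are to be read beside the 5.64% of all tested genes called higher and 6.42% called lower. Of 7 activated fibroblast genes 4 were called higher, and their summed level was 10288 to 12735 CPM in *mdka cn105* and 8046 to 10907 CPM in *mdka*+/+ pools. Of 7 leukocyte genes 4 were called higher and 1 lower (sums of 1012 to 1298 and 809 to 873 CPM). Of 6 red blood cell genes listed 4 were matched by name, and all 4 were called higher (sums of 4454 to 10249 and 2925 to 4979 CPM). Of 7 cardiomyocyte genes 5 were called lower (sums of 32528 to 39462 and 45366 to 50062 CPM). Of 7 endothelial genes 1 was called higher and 1 lower (sums of 901 to 1104 and 920 to 975 CPM), and 1 of 2 smooth muscle genes was called higher (sums of 308 to 429 and 241 to 294 CPM). No marker of these lists was at 0 in all libraries. In whole tissue, more cells of a type and more RNA per cell cannot be told apart, and the part of these cell types in the *snai1b* difference was not tested.

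The difference of *wt1a* between the genotypes was within the spread of the pools. Its level was 8.64, 12.2 and 9.80 CPM in *mdka*+/+ replicates 1, 2 and 4. It was 7.02, 9.01 and 14.4 CPM in *mdka cn105* replicates 2, 3 and 4, so the lowest and the highest of all 6 pools were both *mdka cn105* pools. The log2 fold change was -0.01 (SE 0.28, edgeR unadjusted *p* = 0.966), with a 95% interval from -0.65 to 0.63. Changes within that interval in either direction cannot be told from none.

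*wt1b* followed its paralog closely. Its level was 14.8, 18.5 and 15.3 CPM in *mdka*+/+ replicates 1, 2 and 4. It was 9.51, 13.0 and 19.8 CPM in *mdka cn105* replicates 2, 3 and 4, and the groups overlapped. The log2 fold change was -0.20 (SE 0.26, edgeR unadjusted *p* = 0.461, 95% interval -0.80 to 0.40). Replicate 4 of *mdka cn105* decided this outcome, since without it the log2 fold change was -0.53 with an unadjusted *p* of 0.0367 (adjusted *p* = 0.651, within a range of 0.651 to 0.997 over the fits that left out a library). Both *wt1* genes were more variable in *mdka cn105* than in *mdka*+/+ pools. The coefficients of variation were 37.6% against 17.7% for *wt1a* and 37.1% against 12.4% for *wt1b*. In *mdka cn105* pools, 96.9% of the 5486 genes of like abundance had a smaller coefficient of variation than *wt1a*, and 97.5% of 5571 had a smaller one than *wt1b*. The difference in spread between genotypes was not tested.

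Where one *wt1* gene was high, so was the other. The order of the pools was the same for both genes within each genotype, and the SD of the log2 difference between them was 0.08 among *mdka*+/+ and 0.05 among *mdka cn105* pools. The count ratio of *wt1b* to *wt1a* was 1.71, 1.52 and 1.56 in *mdka*+/+ replicates 1, 2 and 4 and 1.36, 1.45 and 1.38 in *mdka cn105* replicates 2, 3 and 4. The ratio was lower in every *mdka cn105* pool, with means of 1.39 ± 0.0486 in *mdka cn105* and 1.6 ± 0.0995 in *mdka*+/+ pools (SD, n = 3 each). The exact two-sided permutation *p* was 0.1, the smallest that 3 against 3 pools can give. The libraries held only 180 to 289 counts of *wt1a* and 244 to 398 of *wt1b*, so counting error alone was between 7.73% and 9.83% of each ratio. The expected counts of both genes were whole numbers in all 6 libraries, so no division of reads between the paralogs shows in them.

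*aldh1a2* had a wide spread in both genotypes. Its level was 454 CPM, 360 CPM and 207 CPM in *mdka*+/+ replicates 1, 2 and 4. It was 354 CPM, 332 CPM and 514 CPM in *mdka cn105* replicates 2, 3 and 4. The lowest pool was *mdka*+/+ and the highest *mdka cn105*, and the groups overlapped. The means were 340.6 ± 125 CPM in *mdka*+/+ and 399.8 ± 99.2 CPM in *mdka cn105* (SD, n = 3), a log2 fold change of 0.23 (SE 0.29, edgeR unadjusted *p* = 0.453, 95% interval -0.45 to 0.91). Without *mdka*+/+ replicate 4 the log2 fold change was -0.03, and without *mdka cn105* replicate 4 it was 0.01 (edgeR unadjusted *p* = 0.987), so the value rested on these libraries. With the replicate number as a block it was 0.64 (edgeR unadjusted *p* = 0.0798). That fit takes its genotype difference from replicates 2 and 4, and so from the same replicate 4 libraries. In the GRCz12tu assembly *aldh1a2* and *mdka* are on the same chromosome, with 162 protein-coding genes between them.

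The next comparison asks whether the 4 epicardial genes follow *mdka* from pool to pool within a genotype. Among the 3 *mdka*+/+ pools none of the 4 was in the order of *mdka* (replicate 1 lowest, replicate 4 highest), an order that 21.8% of all tested genes had. *aldh1a2* was in the opposite order, as were 20.4% of all tested genes. From the pool with least to the pool with most *mdka*, *mdka* was 2.49-fold higher and *aldh1a2* was at 0.456 of its level. A fold at least as large as that of *mdka* was seen in 5.69% of tested genes, and a ratio at most that of *aldh1a2* in 4.77%. Over the same pools the ratios were 1.13 for *wt1a*, 1.04 for *wt1b* and 1.17 for *snai1b*. These 3 genes were lowest in replicate 1, as *mdka* was, and highest in replicate 2, where *mdka* was intermediate. Some of these ranks rest on small gaps. *snai1b* had 17.6 and 17.2 CPM in replicates 2 and 4, from 338.52 and 326.2 counts. *wt1b* had 14.8 and 15.3 CPM in replicates 1 and 4, from 318 and 291 counts. Whether such gaps exceed counting error was not tested. The count of 0 of 4 was the same with relative log expression factors and with library size only. A group of 3 pools allows no correlation, and these orders are a description of single pools.

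**Figure D2:**
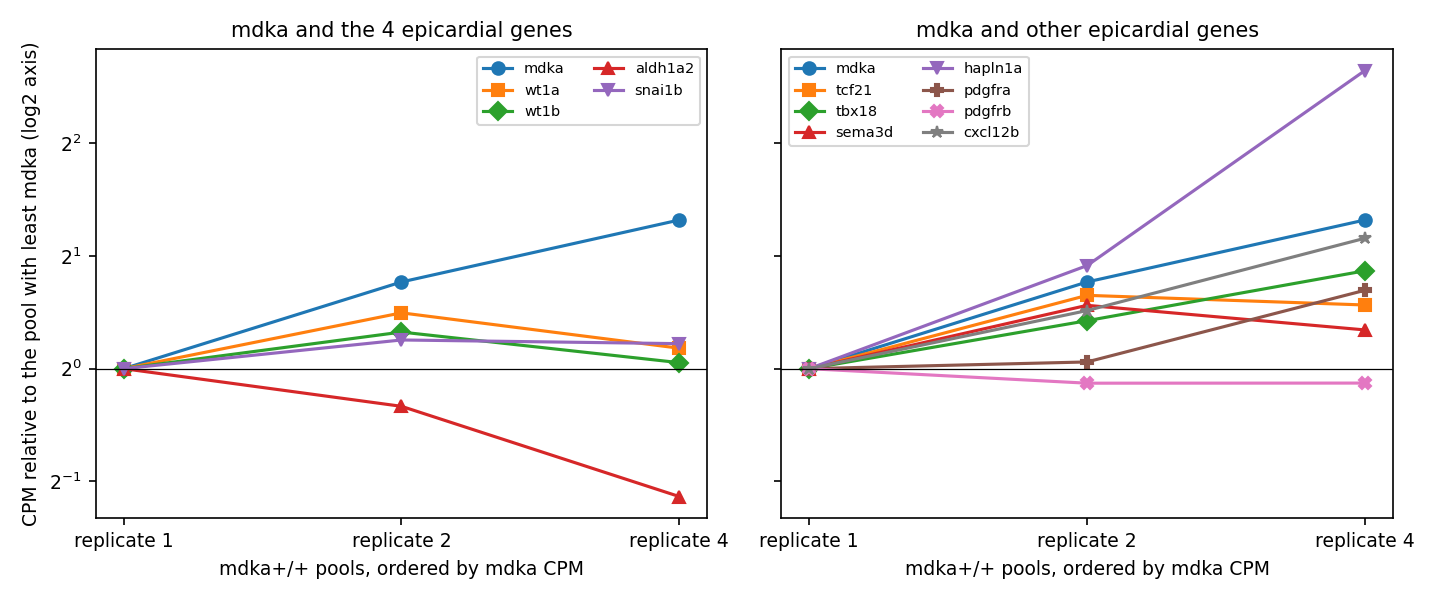
CPM of each gene in the 3 *mdka*+/+ pools, divided by its CPM in the pool with least *mdka* (replicate 1), on a log2 axis, with the pools ordered by their *mdka* level. On the left *mdka* reaches 2.49 in replicate 4 while *aldh1a2* is at 0.456 and *wt1a*, *wt1b* and *snai1b* lie between 1.04 and 1.17. On the right *hapln1a* reaches 6.24, *cxcl12b* 2.23 and *tbx18* 1.82, and *pdgfrb* is at 0.915. The list genes *bnc2*, *cav1* and both COL12A1 genes are not drawn.

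Some other epicardial genes were in the order of *mdka* among these pools. Of the 11 other genes in a list of epicardial and epicardium-derived cell genes, 6 had the order of *mdka* and 0 the opposite order, against 21.8% and 20.4% of all tested genes. The 6 were *tbx18*, *hapln1a*, *pdgfra*, *cxcl12b* and both genes named COL12A1. The other 5 were in neither order. Between the pools with least and most *mdka* their ratios were 0.751 for *cav1* (342, 454 and 256 CPM in replicates 1, 2 and 4) and 0.915 for *pdgfrb*. The ratios were 1.27 for *sema3d*, 1.48 for *tcf21* and 1.63 for *bnc2*, which were highest in replicate 2. *hapln1a*, for a protein that links hyaluronan to proteoglycans, had 33.5, 63.0 and 209 CPM in replicates 1, 2 and 4, a ratio of 6.24 between the outer pools. The T-box factor gene *tbx18* had 36.3, 48.7 and 66.1 CPM, and the chemokine gene *cxcl12b* 38.7, 55.3 and 86.2 CPM. *tcf21*, a transcription factor gene of epicardial cells and cardiac fibroblasts, had 24.4, 38.4 and 36.2 CPM. Like *wt1a*, *wt1b* and *snai1b*, *tcf21* was lowest in replicate 1 and highest in replicate 2, and so not in the order of *mdka*. Of 7 activated fibroblast genes 5 were in the order of *mdka*, with *postnb* (periostin b) at 538, 934 and 1173 CPM. The atrial gene *myh6* was also in that order, at 65.5, 195 and 216 CPM, and the part of differences in the dissected tissue was not tested. Leukocyte genes were split, with 3 of 7 in the opposite order and 1 in the order of *mdka*. *cxcl12b*, *pdgfrb*, *sema3d*, *bnc2*, *postnb* and the other genes of this order were named after their values were seen.

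Among the *mdka cn105* pools the remaining *mdka* transcript was lowest in replicate 2 and highest in replicate 4. *wt1a*, *wt1b* and *snai1b* were in that same order, as were 18.7% of all tested genes, and *aldh1a2* was in neither that nor the opposite order. Of the 11 other epicardial list genes, 3 had the order of *mdka* in these pools and 0 the opposite order. Of the 7 activated fibroblast genes, 1 had each order, beside 18.7% and 17.2% of all tested genes. From replicate 2 to replicate 4 the level of *mdka* differed 1.71-fold, that of *wt1a* 2.05-fold, that of *wt1b* 2.08-fold and that of *snai1b* 1.11-fold. *wt1a*, *wt1b* and *aldh1a2* were each highest in replicate 4. The same pool had the highest sum of the 4 red blood cell genes (10249 CPM, against 6730 and 4454 CPM in replicates 2 and 3), and the part of this in the *wt1* and *aldh1a2* levels was not tested.

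To relate each gene to general epicardial markers in its pool, its CPM was divided by the summed CPM of *tcf21* and *tbx18*. *tcf21* is also a gene of cardiac fibroblasts, and in these ratios fewer cells and less RNA per cell cannot be told apart. The ratio for *snai1b* was 0.243, 0.202 and 0.168 in *mdka*+/+ replicates 1, 2 and 4 and 0.443, 0.505 and 0.419 in *mdka cn105* replicates 2, 3 and 4. *snai1b* was higher per *tcf21* and *tbx18* in every *mdka cn105* pool, by 1.17 on the log2 scale. For *mdka* the ratio was 7.07, 8.40 and 10.5 in *mdka*+/+ replicates 1, 2 and 4 and 1.1, 1.93 and 1.61 in *mdka cn105* replicates 2, 3 and 4. *mdka* was lower per *tcf21* and *tbx18* in every *mdka cn105* pool, with a log2 difference of -2.50. Both differences had an exact permutation *p* of 0.1, the smallest possible. The differences for *wt1a*, *wt1b* and *aldh1a2* were 0.04, -0.16 and 0.37 on the log2 scale, with exact permutation *p*-values of 1, 0.6 and 0.7. The divisor itself varied, since *tcf21* was 1.48-fold and *tbx18* 1.82-fold higher in *mdka*+/+ replicate 4 than in replicate 1. Division by it therefore had to narrow the wild-type range of *mdka* and widen that of *aldh1a2*, and is no separate result. The ratio of *aldh1a2* was 7.48, 4.14 and 2.02 in *mdka*+/+ replicates 1, 2 and 4.

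No gene of the epicardial list was called between the genotypes. Of the 14 epicardial list genes matched and tested, 0 were called in edgeR's test at an unadjusted *p* of 0.05, and 0 in DESeq2 and in limma-voom, beside 12.1% of all tested genes in edgeR's test. A list of this size would hold few calls at that share. Their median log2 fold change was 0.00, against -0.01 over all tested genes, with 7 positive and 7 negative values, and in none did the groups separate, as they did for 17.7% of all tested genes. *tcf21* had 33.0 ± 7.48 CPM in *mdka*+/+ and 33.4 ± 4.10 CPM in *mdka cn105* hearts (SD, n = 3, log2 fold change 0.02, 95% interval -0.42 to 0.45). *tbx18* had 50.4 ± 15 and 43.1 ± 5.38 CPM (SD, n = 3, log2 fold change -0.22, 95% interval -0.72 to 0.28). These 14 include *wt1a*, *wt1b* and *aldh1a2* but not *mdka* or *snai1b*, which were called and stand in other lists.

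*aldh1a2* belongs to the retinoic acid pathway, in which retinol is oxidised by Rdh10 and Aldh1a enzymes, retinoic acid binds Rar and Rxr nuclear receptors, and Cyp26 enzymes break it down. All 26 genes listed for this pathway were matched, 18 had enough counts to be tested, and 0 were called in edgeR's test at an unadjusted *p* of 0.05, in DESeq2 or in limma-voom, beside 12.1% of all tested genes in edgeR's test. The median log2 fold change was 0.09. *cyp26b1*, the degrading enzyme gene with most counts, had 72.3, 36.3 and 32.2 CPM in *mdka*+/+ replicates 1, 2 and 4 and 98.7, 41.6 and 41.2 CPM in *mdka cn105* replicates 2, 3 and 4. One pool of each genotype stood above the rest, and the log2 fold change was 0.37 (SE 0.42). The other synthesis gene of the family, *aldh1a3*, had too few counts to be tested. The plasma retinol carrier gene *rbp4* had a log2 fold change of -0.28 (SE 0.14, edgeR unadjusted *p* = 0.0766).

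*snai1b* was not alone among EMT transcription factor genes. Of the 13 listed, 12 were tested, of which 3 were called higher (*snai1b*, *twist1b* and *zeb2b*) and 2 lower (*twist2* and *zeb1b*), beside 5.64% and 6.42% of all tested genes. The median log2 fold change of the 12 was 0.16, and 0 had an adjusted *p* under 0.05 in the main edgeR test. With library size only 7 were called, in a setting where 2081 of all 17879 tested genes were called higher and 501 lower. Under the replicate block 3 were called, beside 1976 of all tested genes. With DESeq2 the adjusted *p* was 7.86e-05 for *twist1b*, 0.0138 for *zeb2b* and 0.259 for *zeb1b*. The list was made with the *snai1b* result already known. *twist1b*, for a basic helix-loop-helix factor of mesenchyme, had 17.5, 12.6 and 12.8 CPM in *mdka*+/+ replicates 1, 2 and 4 and 38.2, 33.5 and 25.9 CPM in *mdka cn105* replicates 2, 3 and 4. The groups did not overlap, and the log2 fold change was 1.19 (SE 0.19, edgeR unadjusted *p* = 0.000337, adjusted *p* = 0.128). *zeb2b*, for a zinc finger E-box repressor, had 7.81, 6.38 and 6.53 CPM in *mdka*+/+ pools and 11.8, 11.7 and 10.9 CPM in *mdka cn105* pools. Its groups were apart as well, with a log2 fold change of 0.73 (SE 0.15, edgeR unadjusted *p* = 0.00134, adjusted *p* = 0.17). *twist1b* and *zeb2b* stayed called in each of the 6 fits that left out a library.

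The other Snail, Twist and Zeb genes were not called or were called lower. *snai1a* had 11.1 ± 1.44 CPM in *mdka*+/+ and 13.9 ± 2.78 CPM in *mdka cn105* hearts (SD, n = 3, log2 fold change 0.33, SE 0.19, edgeR unadjusted *p* = 0.121). *snai2*, *twist1a* and *zeb2a* were not called, with log2 fold changes of 0.17, -0.22 and 0.15 (*twist1a* was named after its values were seen). *zeb1b* was called lower with a log2 fold change of -0.33 (SE 0.13, edgeR unadjusted *p* = 0.0333). Among the 6 fits that left out a library it stayed called only without *mdka*+/+ replicate 4 (unadjusted *p* = 0.00514 there, 0.0516 to 0.102 in the others). With edgeR it was not called with library size only (unadjusted *p* = 0.19) or under the replicate block (unadjusted *p* = 0.109). Its log2 fold change stayed between -0.44 and -0.27 over those 6 fits, and every *mdka cn105* pool (73.7 to 81.7 CPM) lay below every *mdka*+/+ pool (82.5 to 105 CPM). The value of *twist2* came from a single pool. It had 7.81 CPM in *mdka*+/+ replicate 1 against 0.778 and 0.843 CPM in replicates 2 and 4 and 0.464 to 0.498 CPM in *mdka cn105*. Its log2 fold change was -2.72, and -0.76 with an unadjusted *p* of 0.113 without that pool. Differences between paralogs in the size of their change were not tested.

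**Figure D3:**
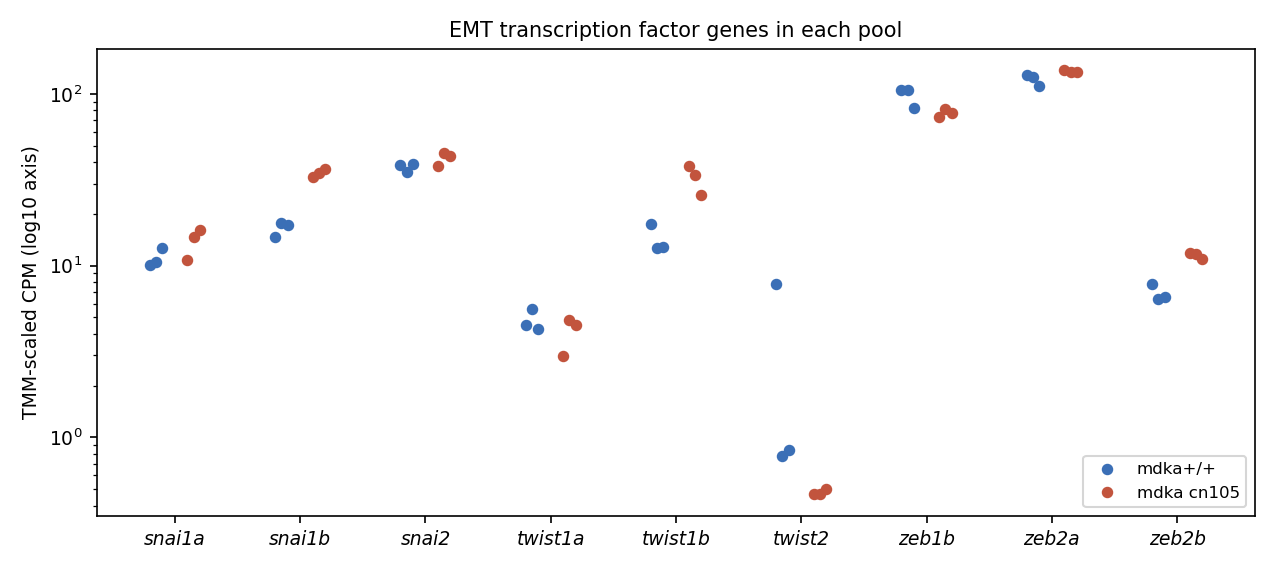
TMM-scaled CPM on a log10 axis of 9 EMT transcription factor genes in the 3 *mdka*+/+ pools (blue) and the 3 *mdka cn105* pools (red), each point a pool. *snai1b*, *twist1b* and *zeb2b* are higher in all *mdka cn105* pools, as is *zeb2a* by a small margin, *zeb1b* is lower in all of them, and a single *mdka*+/+ pool at 7.81 CPM sets the *twist2* difference.

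Among 8 matched adhesion and cytoskeleton genes of the epithelial and mesenchymal state, 7 were tested and 1 was called, a share near the 12.1% of all tested genes. The mesenchymal cadherin gene *cdh11* had 25.9, 22.0 and 24.6 CPM in *mdka*+/+ replicates 1, 2 and 4 and 41.2, 47.1 and 37.4 CPM in *mdka cn105* replicates 2, 3 and 4. All *mdka cn105* pools were above, with a log2 fold change of 0.79 (SE 0.13, edgeR unadjusted *p* = 0.000332, adjusted *p* = 0.128). The N-cadherin gene *cdh2*, which cardiomyocytes express strongly, was not called (log2 fold change -0.24, SE 0.12). The E-cadherin gene *cdh1*, a known target of Snail repression, was at low levels of 2.61 ± 0.60 CPM in *mdka cn105* and 4.5 ± 2.30 CPM in *mdka*+/+ hearts (SD, n = 3), with overlapping groups and an edgeR unadjusted *p* of 0.0928 (*cdh1* was named after its values were seen). The keratin genes *krt8* and *krt18a.1*, of simple epithelia, had log2 fold changes of 0.14 and 0.23 and were not called.

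*mdka* was also compared with its own family and with the receptors described for midkine. Of the 15 genes matched, 12 were tested, with 2 called higher and 3 lower, beside 5.64% and 6.42% of all tested genes, and a median log2 fold change of -0.00. One of the 3 lower genes is the mutated gene *mdka* itself. The paralog gene *mdkb* was at 2.74, 2.85 and 4.43 CPM in *mdka*+/+ replicates 1, 2 and 4 and at 1.48, 3.44 and 2.39 CPM in *mdka cn105* replicates 2, 3 and 4. The groups overlapped, and the log2 fold change was -0.46 (SE 0.36, edgeR unadjusted *p* = 0.239, 95% interval -1.29 to 0.37). The related ligand gene *ptn* (pleiotrophin) had 2.46, 1.5 and 2.21 CPM in *mdka*+/+ and 3.47, 4.04 and 3.19 CPM in *mdka cn105* pools. Its log2 fold change was 0.79 (SE 0.26, edgeR unadjusted *p* = 0.0173, adjusted *p* = 0.29). With edgeR it was not called without *mdka cn105* replicate 3 (unadjusted *p* = 0.0675) or under the replicate block (unadjusted *p* = 0.0532).

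The 2 genes for Ptprz1, a receptor tyrosine phosphatase that binds midkine and pleiotrophin in mammals, moved in opposite directions. *ptprz1b*, with the larger counts of the 2, had 39.2, 35.5 and 25.2 CPM in *mdka*+/+ replicates 1, 2 and 4 and 20.2, 22.3 and 16.7 CPM in *mdka cn105* replicates 2, 3 and 4. Its log2 fold change was -0.75 (SE 0.19, edgeR unadjusted *p* = 0.00458, adjusted *p* = 0.213). *ptprz1a* had 0.372, 0.674 and 0.42 CPM in *mdka*+/+ and 1.44, 2.28 and 1.99 CPM in *mdka cn105* pools, a log2 fold change of 1.95 (SE 0.37, edgeR unadjusted *p* = 0.0009, adjusted *p* = 0.162). For both genes the groups did not overlap and the call held in each of the 6 fits that left out a library. *notch2*, a receptor reported to bind midkine in mammalian cells, was called lower (log2 fold change -0.25, SE 0.10, edgeR unadjusted *p* = 0.0388). The call was kept in only 1 of the 6 fits that left out a library (the fit without *mdka*+/+ replicate 2). With edgeR it was also lost with library size only (unadjusted *p* = 0.328), without a filter on low counts (unadjusted *p* = 0.055) and under the replicate block (unadjusted *p* = 0.135). The log2 fold change of *notch2* was between -0.28 and -0.22 over those 6 fits, and its groups did not overlap. Syndecan and nucleolin genes (*sdc2*, *sdc4* and *ncl*) were not called, with log2 fold changes of 0.01, -0.06 and 0.02.

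**Figure D4:**
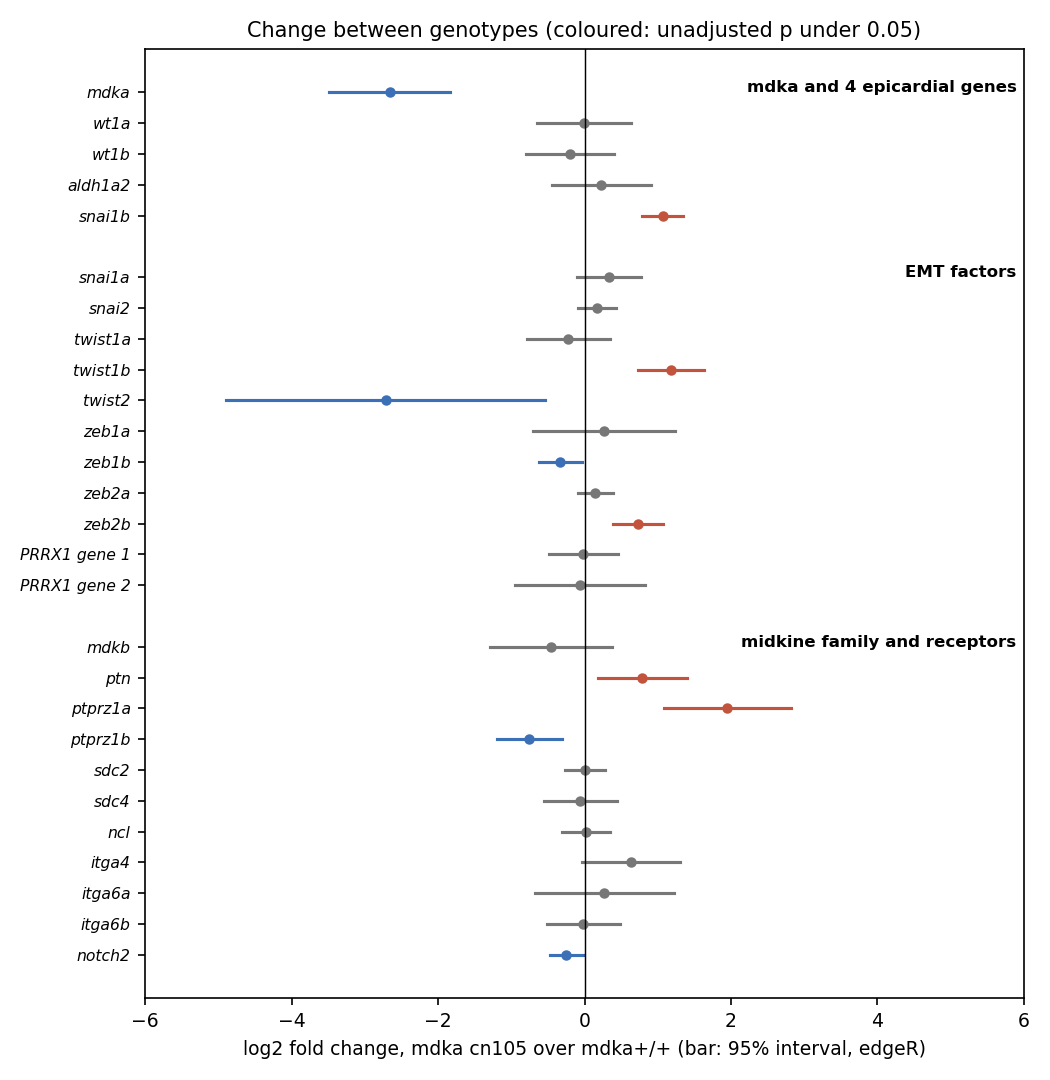
Log2 fold change of *mdka cn105* over *mdka*+/+ (horizontal axis) with its 95% interval from edgeR for *mdka* and the 4 epicardial genes, the other EMT transcription factor genes and the other midkine family and receptor genes that were tested. Red marks genes called higher, blue genes called lower and grey genes not called. *snai1b* has the narrowest interval of the called genes with a log2 fold change above 1 (0.79 to 1.35), and that of *twist2* is wide because 1 pool stood apart.

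The genes whose profile over the 6 libraries was most like each of the 5 were ranked among 16954 other named genes. The measure was the root mean square difference between log2 profiles, each centred on its mean. It takes in the difference between genotypes, which separated the groups for *mdka* and *snai1b*, as well as that between pools of a genotype. For *mdka* the nearest gene, *si:ch211-194p6.12*, was 0.43 log2 units away. It had between 0 and 0.05 CPM in *mdka cn105* and 2.18 to 4.74 CPM in *mdka*+/+ pools, so its distance depends on the pseudocount of 0.5 CPM. The next were *si:dkeyp-82a1.1* (0.68) and *zgc:112271* (0.73), and *wt1b*, *wt1a*, *aldh1a2* and *snai1b* were at ranks 1849, 4696, 15615 and 16727. Among *mdka*+/+ pools alone their sequence was another. The SD of the log2 difference from *mdka* there was 0.55 for *snai1b*, 0.59 for *wt1a*, 0.64 for *wt1b* and 1.23 for *aldh1a2*. These SDs include the spread of *mdka* itself, which differed 2.49-fold between the outer pools. The ratios between the same pools were 1.17 for *snai1b*, 1.13 for *wt1a* and 1.04 for *wt1b*. A smaller SD here therefore does not show that a gene followed *mdka*. The genes nearest to *wt1b* included *si:dkey-192k22.2* (0.10) and its paralog *wt1a* (0.11), at rank 3. For *wt1a* they were *foxd7* (0.08), *DGKI* (0.08) and *GAL3ST2* (0.09), with *wt1b* at rank 7. *aldh1a2* was nearest to *apol* (0.08), *cyth4a* (0.08) and *CDK2AP2* (0.09), and *snai1b* to *tanc1a* (0.05), *abcg2a* (0.08) and *havcr1* (0.08). Some of these genes also had few counts, with 0.156 to 1.66 CPM for *si:dkeyp-82a1.1*, 0.663 to 1.61 CPM for *foxd7* and 0.624 to 1.5 CPM for *DGKI*. With so many genes and 6 libraries close matches are common, and these are a description of profiles.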

How the data were processed

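RNA was sequenced in 6 libraries (single reads, stranded kit), 1 per pool of ventricular apexes. The authors mapped reads to the GRCz11 transcriptome of Ensembl and deposited RSEM expected counts per gene, neither normalized nor filtered (bcl2fastq 2.20.0.422, cutadapt and RSEM are named in the submitters' processing notes). Per library, 18.7% to 20.4% of entries were fractional, since RSEM divides reads between similar transcripts.

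Counts were rounded and tested with edgeR 4.0.16 (R 4.3.3), with TMM, filterByExpr (minimum count 10, total 15) and the two-sided quasi-likelihood test without covariates, over 17879 genes. Standard errors were derived from the F statistics, and 95% intervals used edgeR's total degrees of freedom. Log2 profiles used a pseudocount of 0.5 CPM. The pipeline was tested on simulated data. Precision is limited by 3 pools per genotype. Where pools are not stated to come from separate clutches, *p*-values measure only the spread between them.

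The 5 genes and the lists were chosen with earlier results of these data known. Named genes are the 5 members, called list genes, paralogs of members, *tcf21*, *tbx18* and up to 4 abundant genes per list. Symbols came from the study's gene table and a names table, and 111 of 129 list entries were matched. Pairs with a single shared human symbol were kept as 2 unnamed copies, and *mdkb* and *postnb* were identified as the remaining gene of their pair. Alternatives were DESeq2 1.42.0, limma-voom (limma 3.58.1), other scaling and filters, a replicate block and leaving out single libraries. Coordinates are from the study's GRCz11 gene annotation, and those of *wt1a*, *wt1b* and *aldh1a2* were not used here. One gene that the naming rule selected is not reported here.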

Additional observations from a re-analysis of the deposited data

How the results depend on the processing

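*mdka* and *snai1b* kept their direction and an unadjusted *p* under 0.05 in all 7 alternatives with every library and in all 6 fits that left out a library. Their log2 fold changes ranged from -2.94 to -2.30 and from 0.99 to 1.12 over those 6 fits. In the replicate block, 1 of the 7 alternatives, the genotype difference rests on replicates 2 and 4. *wt1a* was near 0 and changed sign with library size only (0.13) and without *mdka cn105* replicate 2 (0.19), replicate 3 (0.06) or *mdka*+/+ replicate 2 (0.13), within a range of -0.35 to 0.19. *wt1b* ranged from -0.53 to 0.01, with 0.011 without *mdka cn105* replicate 2, and *aldh1a2* from -0.03 to 0.49, with -0.028 without *mdka*+/+ replicate 4. The cause of these changes of sign was not tested. The number of the 5 genes called was 2 or 3 when a library was left out.

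Genes passing an adjusted *p* of 0.05 numbered 1 in the main test, 445 with DESeq2, 19 with library size only, 2 with limma-voom, 19 without a filter, 4 with the replicate number as a block and 0 to 3 when a library was left out. The number with an unadjusted *p* under 0.05 was 1332 to 2772 in the fits without a library, against 2157 of 17879 in the main test. Between 18207 and 18379 genes were tested in those fits. Called genes ranged there from 0 to 2 in the epicardial list, 0 to 3 in the retinoic acid list, 3 to 5 among EMT factors, 1 to 2 among adhesion and cytoskeleton genes and 3 to 5 in the midkine list. With library size only 2 of 18 retinoic acid genes were called, beside 2582 of all 17879 tested genes. The replicate block gave 1 of 14 epicardial, 2 of 18 retinoic acid and 3 of 12 EMT factor genes, beside 1976 of 17879. Under the block the log2 fold changes were -3.05 for *mdka* and 0.99 for *snai1b*. Deviations of pools with the shared numbers 2 and 4 correlated at 0.11 and -0.01 over genes, and those of pools with unequal numbers at -0.11 to 0.13. With 3 pools per genotype these values cannot decide whether equal numbers mark paired pools.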
